A study of Mus musculus with 9 samples.

Results

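Stat3, Socs3, Bcl3, Pim1, Pim3 and Gbx2 are genes that respond to leukaemia inhibitory factor (LIF) through the transcription factor STAT3, or, for Stat3, encode that factor. Nascent transcription at these 6 genes was followed in mouse embryonic stem cells at 0, 15 and 30 min of induction of the long non-coding RNA Firre. The units were bidirectional regions, places where engaged RNA polymerase leaves in both directions, mapped by PRO-seq, a nuclear run-on assay, and counted in windows of 600 bp on the mm10 build. A region belonged to a gene when its centre lay inside the gene, or within 10 kb of either end, by RefSeq coordinates of the same assembly. This gave 29 of 174289 regions, 4 for Stat3, 7 for Socs3, 4 for Bcl3, 1 for Pim1, 5 for Pim3 and 8 for Gbx2. Chromosome 17, which carries Pim1, held 1128 regions in the list, against 4794 to 14263 on each other autosome, so the single Pim1 region cannot be set against the numbers at the other genes.

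All 9 libraries came from cells with a Firre knockout and an inducible Firre transgene, grown without feeder cells on gelatin with 100 U/mL LIF, 1 μM PD0325901 (a MEK inhibitor), 3 μM CHIR99021 (a GSK3 inhibitor) and 12.5% serum. The groups were 0 min (no doxycycline), 15 min and 30 min of doxycycline at 1 ng/μL, with 3 libraries each, and LIF was present at every time. Cells with doxycycline but no transgene were not analysed here, so effects of the drug and of Firre cannot be told apart, and neither separate cultures for the 3 libraries of a time nor the number of clones in the line is stated. Values are CPM, read counts scaled to the number of reads in regions of each library, corrected by its TMM scaling factor.

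LIF binds a receptor made of the LIF receptor and gp130, whose attached JAK kinases phosphorylate STAT3. Phosphorylated STAT3 enters the nucleus and binds its target genes, and in mouse embryonic stem cells this helps to hold the cells in the self-renewing state. Some targets turn the pathway down, and the best known is Socs3, whose product binds gp130 and the JAKs and blocks signalling. STAT proteins bind sites of the form TTCNNNGAA.

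The 250 bases before the annotated start are shown for 3 of the genes: Socs3, the one gene with the STAT letters in this stretch, Stat3, which encodes the factor, and Pim1, whose start region had the 15 min estimate nearest 0. Capitals mark TTCNNNGAA and GGGCGG (a GC box) on either strand, and no marked motifs of the 2 kinds overlap. Sequences are from RefSeq, build GRCm38.p6, 5′ to 3′ on the strand of the gene, from chr11:117969367-117969616 (minus strand), chr11:100939541-100939790 (minus strand) and chr17:29490535-29490784 (plus strand).
Socs3: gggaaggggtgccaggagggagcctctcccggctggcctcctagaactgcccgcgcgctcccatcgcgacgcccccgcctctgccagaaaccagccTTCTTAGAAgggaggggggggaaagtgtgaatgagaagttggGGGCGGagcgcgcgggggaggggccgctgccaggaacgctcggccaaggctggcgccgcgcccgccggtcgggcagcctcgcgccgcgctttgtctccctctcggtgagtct
Stat3: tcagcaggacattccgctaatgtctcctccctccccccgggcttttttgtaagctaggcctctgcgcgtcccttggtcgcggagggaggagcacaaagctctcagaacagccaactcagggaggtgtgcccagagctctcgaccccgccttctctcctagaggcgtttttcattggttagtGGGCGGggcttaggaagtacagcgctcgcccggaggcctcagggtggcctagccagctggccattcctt
Pim1: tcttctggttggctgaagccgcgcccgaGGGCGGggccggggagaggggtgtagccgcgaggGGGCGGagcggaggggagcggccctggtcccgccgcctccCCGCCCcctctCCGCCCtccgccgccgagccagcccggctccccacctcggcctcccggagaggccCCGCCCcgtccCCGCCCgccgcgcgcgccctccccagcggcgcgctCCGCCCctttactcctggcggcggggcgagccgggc

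In Socs3 the match is TTCTTAGAA, with its first base 154 bases before the start used. That start lies inside the gene span, which runs on upstream to chr11:117970336. The bases before that outer end were not examined. The letters TTCNNNGAA occurred before 2306 of 32851 RefSeq starts (7.02%) and before 1 of the 7 starts annotated for the 6 genes. The tighter form TTCCNGGAA occurred before 0.913% of starts and before 0 of these 7. GGGCGG was found before 6 of the 7 starts, with 7 matches at Pim1, 3 each at Bcl3 and Pim3 and 1 each at Stat3, Socs3 and Gbx2, against 32.7% of all starts. The stretches of these 6 starts were rich in G and C, from 60.8% at Stat3 to 82.4% at Pim1, against a median of 52.4%. The second Pim1 start had 48.0% and no match to any of the 3 motifs. These are descriptions of letters in a window and not of binding.

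Libraries held 3813365 to 5980366 reads in regions. Summed over its 8 regions, Firre ran between 2.48 and 4.92 CPM at 0 min, between 274 and 338 CPM at 15 min and between 776 and 791 CPM at 30 min. Of 8 stem cell markers 7 had a region at a gene end, with a summed level of 1747 to 1887 CPM without doxycycline, of 1805 to 1896 CPM at 15 min and of 1795 to 1914 CPM at 30 min, while the eighth, Pou5f1, lies on chromosome 17 and had none in the list. Esrrb was the weakest of the 7, with means of 3.66, 3.70 and 4.05 CPM at 0, 15 and 30 min. Feeder fibroblast markers (2 of 7 with a region) summed to at most 3.17 CPM in any library, primitive endoderm markers (3 of 6) to at most 5.91 CPM, mesoderm markers (2 of 4) to at most 5.93 CPM and trophectoderm markers (3 of 4) to at most 11.3 CPM. The 4 neuroectoderm markers, of which Olig2 gave most of the signal, summed to 124 to 125 CPM at 0 min, 92.8 to 102 CPM at 15 min and 100.4 to 117 CPM at 30 min, without overlap between 15 and 0 min, and their part in the results below was not tested. No marker region was called in any of the 3 comparisons. Library 3 of 15 min lay apart on the second principal component, at 85.6, and library 2 of 0 min lay apart on the other side, at -55.1, against -26.9 to 16.5 for the other 7. Calls at the start regions that change without either are given with both values below.

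At 0 min, with LIF present, the start regions of 4 of the genes were among the stronger gene-end regions of these cells. All windows have the same length, but their centres ran from 900 bp before the start at Bcl3 to 116 bp after it at Pim3. The order below is therefore one of windows and not of signal at matched positions. Bcl3, which encodes a nuclear IκB-like cofactor of NF-κB, had the highest level, 219 ± 22.8 CPM (SD, n = 3 libraries). It was followed by Pim3, for a serine/threonine kinase, at 162 ± 37.3 CPM, Socs3 at 119.8 ± 18.2 CPM and Pim1, a related kinase gene, at 99.7 ± 14.3 CPM. Gbx2, a homeobox gene that acts downstream of STAT3 in mouse stem cells, had 40.3 ± 9.63 CPM and Stat3 had 27.9 ± 2.10 CPM. The libraries of Pim3 and Socs3 overlapped, and so did those of Socs3 and Pim1, while the other neighbours in this order did not. Among tested gene-end regions, Bcl3 stood at percentile 98.8 and Stat3 at percentile 69.2. At 15 and 30 min Pim1 stood above Socs3, with libraries that overlapped, and the rest of the order was as at 0 min.

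The deposited full intervals of the same regions were wide at these starts. They spanned 3724 bp at Bcl3, 2016 bp at Socs3, 1720 bp at Pim1, 1400 bp at Pim3, 976 bp at Stat3 and 570 bp at Gbx2, against medians of 470 bp at gene ends and 342 bp over all regions. The Bcl3 window was centred 900 bp before the annotated start and does not reach it. It is counted as a start region only because its centre lay within 1 kb of the start. The other 5 windows overlap the 250 bases before their starts.

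The comparison of 15 with 0 min asked which of these genes changed first. Signal was lower at 15 min in a window before the start of Bcl3, at the start of Socs3, inside Stat3 close to its start, and just past the 3′ end of Gbx2. Of the 20 member regions that passed the filter on low counts, 4 were called lower and 0 higher (edgeR quasi-likelihood test, adjusted p at most 0.05 over all 54299 tested regions). Over all tested regions 3.96% were called lower and 4.29% higher. Of the 7 tested regions centred within 1 kb of a start of the 6 genes 3 were called lower, against 8.09% of 16431 tested gene-end regions. That share counts ends of any gene, and by that rule 9 member regions were tested and 3 were called lower. The median log2 change was -0.17 over tested gene ends and -0.45 over the 7 start regions. Setting the scaling factors on gene ends alone moved the median of all regions by over 0.1, to 0.19 on the log2 scale, against 0.025 with factors set on all regions (and to 0.11 at 30 min, against -0.0010), and with it 3 of the 4 calls held. In these bulk libraries fewer transcribing cells and less transcription per cell cannot be told apart.

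Bcl3 changed with the smallest p. Its region at chr7:19823356-19823955 had 239, 194 and 223 CPM in libraries 1 to 3 at 0 min, 120.3, 138 and 157 CPM at 15 min and 176, 175 and 163 CPM at 30 min. The 3 times did not overlap, with 15 min the lowest and 30 min between the others. The change at 15 min against 0 min was -0.66 ± 0.11 (log2 ± SE, adjusted p = 0.00048), a fall to 139 CPM at 15 min, against 219 CPM at 0 min. At 30 min against 0 min it was -0.35 ± 0.11 and was not called (adjusted p = 0.104; 0.0452, a call, without library 3 of 15 min).

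Socs3, the feedback inhibitor, fell at 15 min and was also lower at 30 min. Its start region, centred 33 bp after the annotated start (chr11:117969034-117969633), had 137, 100.5 and 122 CPM at 0 min, 72.8, 69.8 and 96.9 CPM at 15 min and 77.1, 89.8 and 73.5 CPM at 30 min. Every library with doxycycline was below every library at 0 min. The change was -0.59 ± 0.14 at 15 min against 0 min (edgeR adjusted p = 0.00732) and -0.58 ± 0.14 at 30 min against 0 min (adjusted p = 0.0259). The 15 min call was lost without library 1 of 0 min (adjusted p = 0.0507) or library 1 of 15 min (0.0530), and the 30 min call when library 1 or library 3 was left out at 0 min or at 30 min (0.0791 to 0.180). The STAT letters shown above lie in this window.

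Stat3 has a pair of regions at its start, on either side of it. The upstream one, centred 106 bp before the start, had 30.1, 26.0 and 27.5 CPM at 0 min, 23.8, 19.8 and 23.6 CPM at 15 min and 24.8, 22.4 and 27.7 CPM at 30 min. The libraries of 15 min lay below those of 0 min, but its change of -0.32 ± 0.16 was not called (adjusted p = 0.240). The downstream one, centred 591 bp after the start (chr11:100938650-100939249), had 12.8, 8.95 and 11 CPM at 0 min, 5.0, 4.0 and 5.83 CPM at 15 min and 6.56, 6.15 and 6.40 CPM at 30 min. It fell at 15 min, to 4.94 CPM against 10.9 CPM at 0 min, with a log2 change of -1.16 ± 0.25 (adjusted p = 0.00484). At 30 min against 0 min its change was -0.78 ± 0.24 (adjusted p = 0.103), with no overlap between those libraries either. Both windows also lie in Gm46295, an annotated non-coding gene, and the strand counted is not given in the sources used here, so reads of the 2 genes cannot be separated.

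At Gbx2 the called region was not at the start. It was centred 4396 bp after the start and 1182 bp past the other end of the gene (chr1:89926481-89927080), with a full interval of 1760 bp. It had 22.5, 26.6 and 27.8 CPM at 0 min, 17, 16.2 and 15.1 CPM at 15 min and 23.0, 18.8 and 21.1 CPM at 30 min. All libraries of 15 min lay below those of the other times. The change was -0.66 ± 0.17 at 15 min against 0 min (edgeR adjusted p = 0.0171), and the call was lost with factors set on gene ends (adjusted p = 0.0864), without library 3 of 0 min (0.0648) or without library 2 of 15 min (0.0515).

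The Gbx2 start region had 50.1, 30.9 and 39.9 CPM at 0 min, 29.3, 25.4 and 41.0 CPM at 15 min and 21.7, 28.9 and 31.1 CPM at 30 min. Its libraries overlapped between times, and its changes of -0.35 ± 0.19 at 15 min and -0.58 ± 0.19 at 30 min, each against 0 min, were not called (adjusted p = 0.263 and 0.122). The 15 min change was called without library 3 of 15 min (-0.57, adjusted p = 0.0430) and the 30 min change without library 2 of 0 min (-0.74, 0.0413) or with no filter on low counts (0.0360). LOC102637806, an annotated neighbour, also has an end within 1 kb of this region.

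In the fit of all 9 libraries neither of the Pim kinase genes was called at its start. The Pim3 start region (chr15:88862011-88862610), which also lies in the non-coding gene Gm33049, had 189.5, 119.5 and 177 CPM at 0 min, 108, 83.9 and 166 CPM at 15 min and 82.7, 120.0 and 131 CPM at 30 min. Library 3 of 15 min was far above the other 2 of its time, and library 2 of 0 min far below the other 2 of its own. The changes were -0.45 ± 0.19 at 15 min and -0.54 ± 0.19 at 30 min against 0 min (adjusted p = 0.148 and 0.143). Without library 3 of 15 min the 15 min change was -0.76 and was called (edgeR adjusted p = 0.00206), and without library 2 of 0 min it was -0.63 and was called (0.0308). The 30 min change was called without the same libraries, at -0.55 (0.0296) and -0.73 (0.0349). With no filter on low counts Pim3 was called at both times (edgeR adjusted p = 0.00833 and 0.00242), with the replicate block at 15 min (0.0437) and with only the times compared at 30 min (0.0402).

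The Pim1 region, centred 360 bp before the start (chr17:29490126-29490725), also lies in another annotated gene, Gm26885. It had 114, 85.9 and 98.6 CPM at 0 min, 85.2, 79.1 and 127 CPM at 15 min and 84.9, 107 and 87.2 CPM at 30 min. The times overlapped throughout. Its changes were -0.045 ± 0.15 at 15 min and -0.10 ± 0.15 at 30 min against 0 min, both of which took the other sign with factors set on gene ends. The highest of the 15 min libraries was again library 3.

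**Figure D1:**
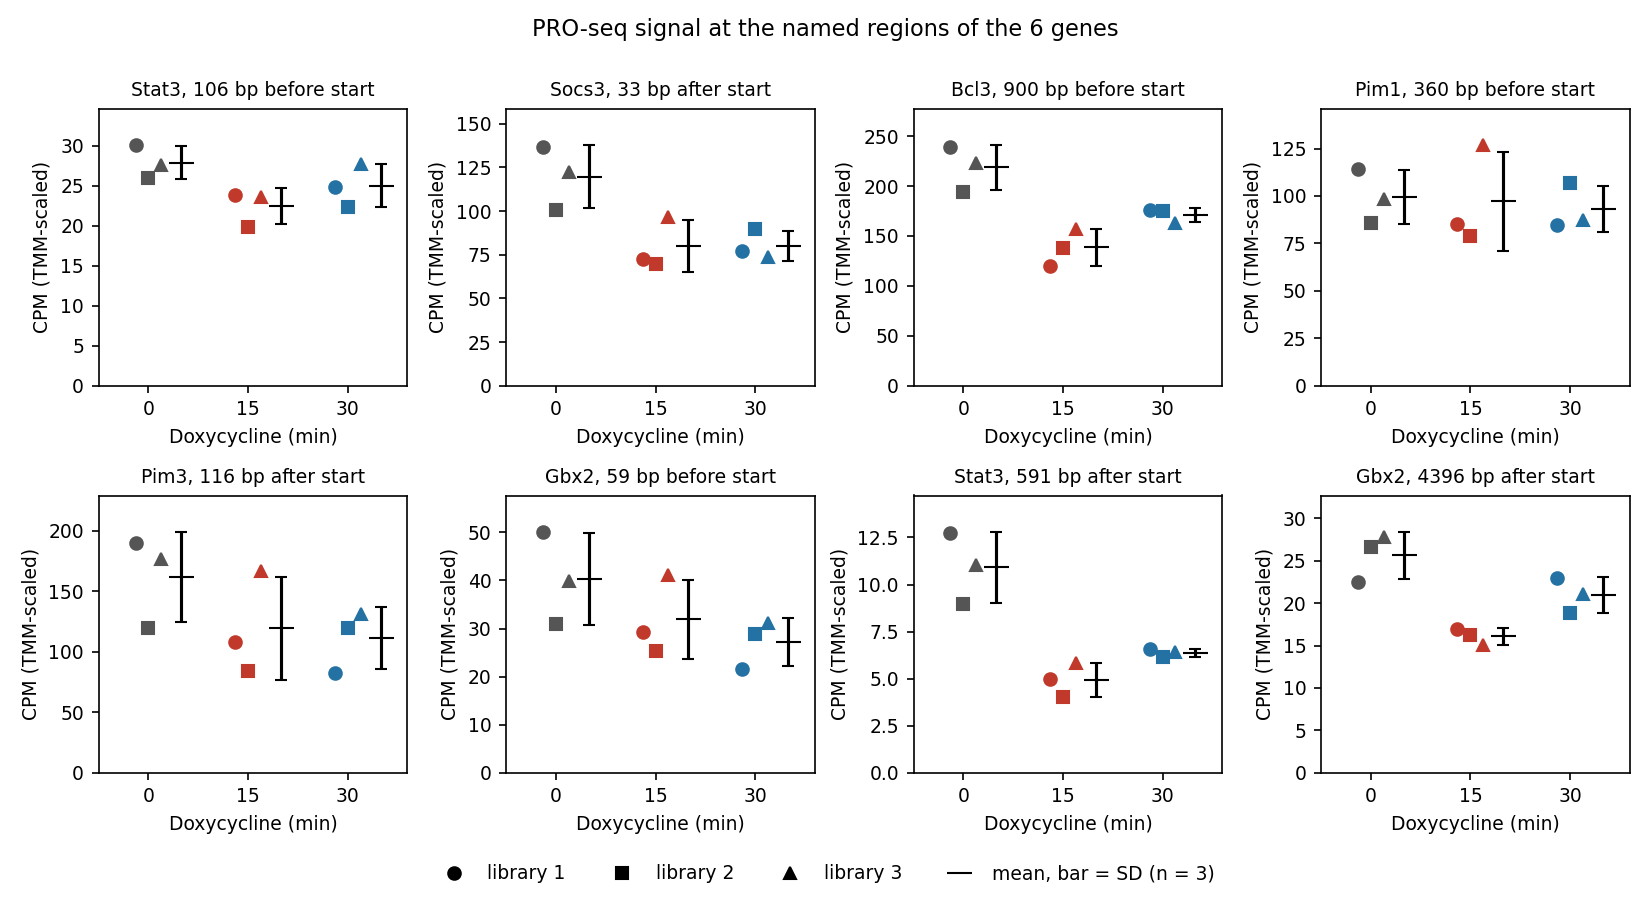
PRO-seq signal (CPM, linear axis from 0) at the 8 named regions of the 6 genes at 0, 15 and 30 min of doxycycline; symbols are libraries 1 to 3 and the black marks are means with SD (n = 3). At Bcl3, Socs3, the second Stat3 region and the Gbx2 region 4396 bp after the start, the 3 libraries of 15 min lie below all 3 of 0 min, while at Pim1, Pim3 and the Gbx2 start they overlap.

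The comparison of 30 with 0 min asked what remained at the later time, and it shares the 0 min libraries with the one above. The Socs3 start was the single member region called, 1 of 20, against 0.497% of all tested regions called lower, 1.24% called higher and 0.822% of those at gene ends called lower. The call was lost without any 1 of 4 libraries, as given above. All 7 start regions had estimates below 0 at both times, from -1.16 to -0.045 at 15 min and from -0.78 to -0.10 at 30 min, except that Pim1 was above 0 with factors set on gene ends and with some single libraries left out. Over all tested gene-end regions, 67.6% were below 0 at 15 min and 67.3% at 30 min. Of the 12 tested regions in the flanks, 6 were below 0 at 15 min and 5 at 30 min.

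From 15 to 30 min 0 of the 20 regions were called by edgeR or by DESeq2, where 0.704% of all tested regions were called by edgeR. At an unadjusted p under 0.05 there were 3 of 20, near the share over all tested regions, 5230 of 54299. They were the Bcl3 region before the start at 0.31 ± 0.11 (edgeR adjusted p = 0.304), the Gbx2 region past the 3′ end at 0.38 ± 0.17 (adjusted p = 0.486) and a Bcl3 flank region at 1.06 ± 0.46 (adjusted p = 0.442). At the Socs3 start the change was 0.011 ± 0.14, and it turned to -0.032 with factors set on gene ends.

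**Figure D2:**
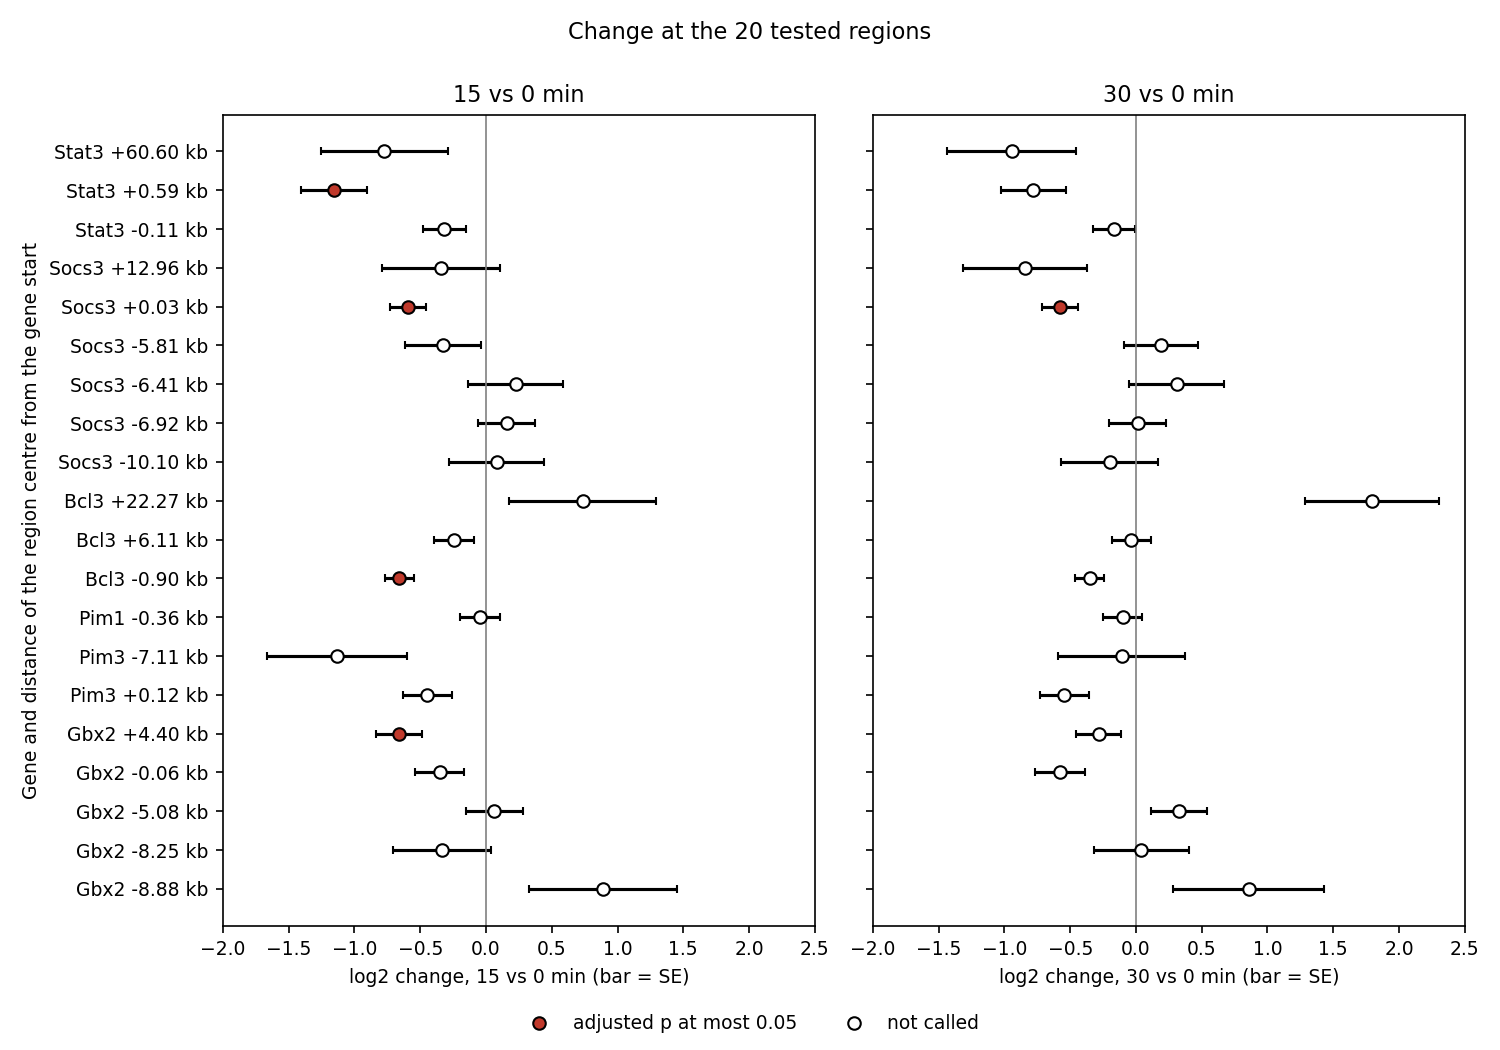
Log2 change with SE at the 20 tested regions of the 6 genes, at 15 against 0 min (left) and 30 against 0 min (right), named by the distance of the region centre from the gene start (positive is downstream). Filled points passed an adjusted p of 0.05; 4 are filled at 15 min and 1 at 30 min, and all 5 lie below 0.

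Away from the starts most regions were weaker and none other than that past Gbx2 was called. Upstream of Socs3 lie 4 tested regions between 5813 and 10101 bp before the start. The strongest, at 6923 bp, had 10.8 ± 1.05 CPM before doxycycline, 12.1 ± 2.26 after 15 min and 11 ± 0.99 after 30 min (SD, n = 3), and its changes against 0 min were 0.16 ± 0.22 and 0.013 ± 0.22. The 4 changes at 15 min ran from -0.32 to 0.22, and all had libraries that overlapped between 15 and 0 min. The windows of 3 of these regions overlap, so a read may count in more than 1.

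At Gbx2, the region 5085 bp before the start had 11.2 ± 1.13 CPM before doxycycline, 11.7 ± 1.19 after 15 min and 14.0 ± 2.91 after 30 min. Inside Bcl3, 6110 bp after its start and also at an end of the non-coding gene Gm16174, the level was 35.1 ± 3.20 CPM before doxycycline, 29.7 ± 1.84 after 15 min and 34.2 ± 4.78 after 30 min. The 15 min libraries of this region lay just below those of 0 min, at -0.24 ± 0.15 (adjusted p = 0.353).

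The highest positive estimate, in a region chosen after its values were seen, lay 7978 bp past the 3′ end of Bcl3. It is nearer an end of Cblc, at 3675 bp, and cannot be assigned to either gene. This weak region had 6, 5 and 3 reads at 0 min, 13, 6 and 7 reads at 15 min and 26, 9 and 18 reads at 30 min. In CPM, libraries 1 to 3 had 1.06, 1.12 and 0.787 at 0 min, 2.17, 1.14 and 1.70 at 15 min and 4.74, 1.68 and 4.27 at 30 min. Each library with doxycycline was above each at 0 min, and the change at 30 min against 0 min was 1.79 ± 0.51 (adjusted p = 0.0674). It was called with factors set on gene ends and without library 2 of 30 min.

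The region 60603 bp after the Stat3 start lies inside the neighbouring gene Stat5a, for another STAT protein, and cannot be assigned to either gene. Its estimate was -0.77 ± 0.48 at 15 min against 0 min, on 6 to 15 reads a library, and was not called. The remaining 9 of the 29 regions did not pass the filter on low counts, with a mean of 0.444 to 8.56 reads and at most 21 in any library. They comprised 1 region at Stat3, 1 at Socs3, 1 at Bcl3, 3 at Pim3 and 3 at Gbx2. In all, 7 of the 20 tested regions had 15 min libraries wholly below those of 0 min, against 11.8% of all tested regions, and 1 had them wholly above, against 13.7%.

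The share of a locus held by its start region was compared over libraries, as the ratio of the start to the sum of the other regions of that gene. At Socs3, Bcl3 and Stat3 these ratios hold regions already called lower, so they are not separate support for those calls. At Socs3 the start held 70.8% to 76.9% at 15 min, against 78.8% to 82.1% at 0 min. At Bcl3 the region before the start held 77.6% to 83.1% at 15 min, against 83.3% to 87.1% at 0 min. At Stat3, where the region inside the gene fell, the upstream region held 73.5% to 79.4% at 15 min, against 66.1% to 66.9% at 0 min. The other Stat3 regions summed here include those inside Stat5a, which cannot be assigned to Stat3. The other Bcl3 regions include the strongest of them, at an end of Gm16174, and a weak region nearer an end of Cblc. The other Pim3 regions are nearest to ends of Gm33049. At Socs3, Bcl3 and Stat3 the differences in log2 ratio were -0.59, -0.52 and 0.75 (exact permutation test, two-sided, p = 0.1 each, the smallest that 3 against 3 libraries allow, and 0.25 adjusted over 15 comparisons). At Pim3 and Gbx2 the ranges overlapped, with exact p = 0.6 and 1.

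**Figure D3:**
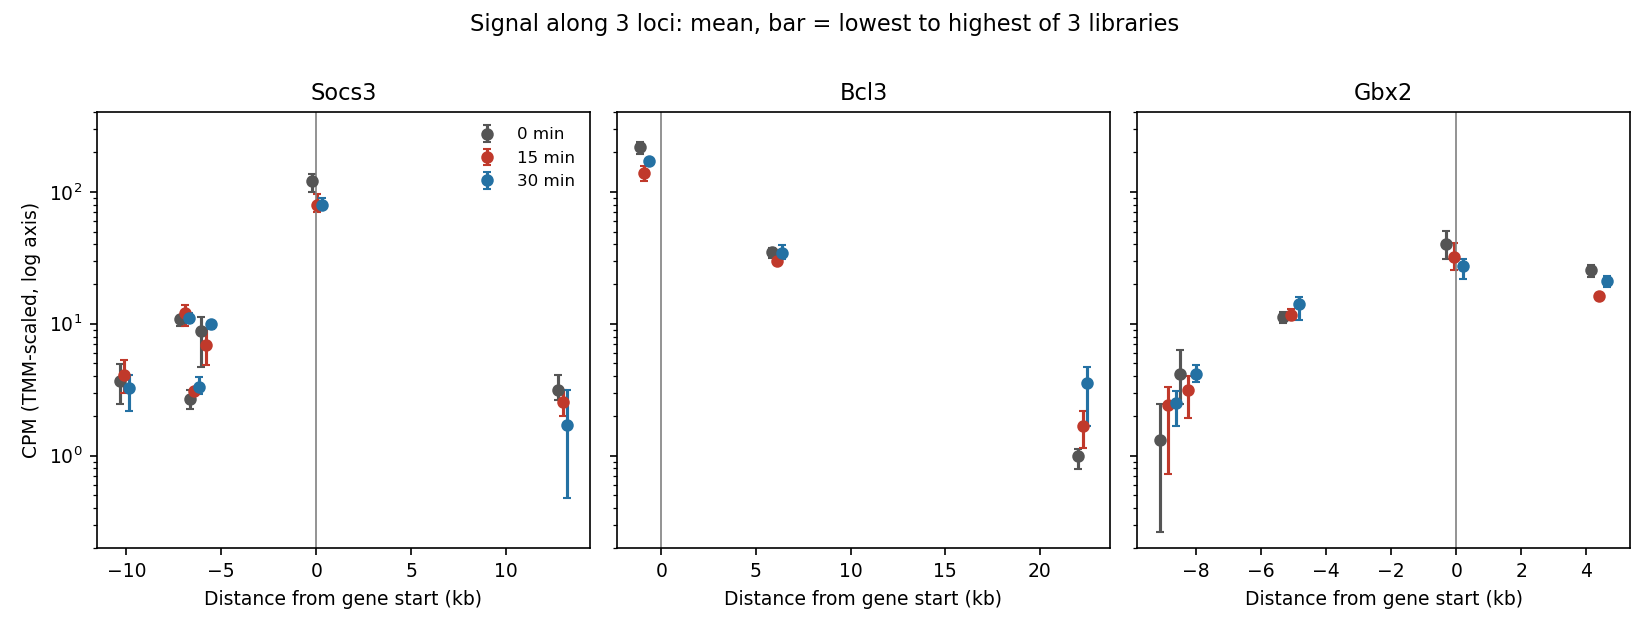
PRO-seq signal (CPM, log axis) at the tested regions of Socs3, Bcl3 and Gbx2 against distance from the gene start in kb, with points for the mean of 3 libraries at 0, 15 and 30 min, set slightly apart, and bars from the lowest to the highest library. The start regions have the highest mean of each locus, though at 30 min the Gbx2 start overlaps the region past the 3′ end. The bars of 15 and 0 min do not overlap at the Socs3 start, in the Bcl3 window before the start or past the 3′ end of Gbx2. Nor do they overlap inside Bcl3 or at the Bcl3 flank region, the last of which is higher at 15 min.

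Other genes of the pathway were read at their gene-end regions. The list held 57 genes, of which 50 had such a region and 46 were tested. At 15 min against 0 min, 8 were called lower and 0 higher, with a median log2 change of -0.18, against 8.09% lower, 1.71% higher and a median of -0.17 over all tested gene-end regions. With factors set on gene ends 6 were called, the calls of Stat2 and Ptpn1 being lost, and the list median was -0.02. At 30 min against 0 min 1 was called lower, against 0.822% of tested gene-end regions. From 15 to 30 min 0 were called, against 0.596%. The 15 min count was 2 without library 1 of 0 min, 4 without library 1 of 15 min and 3 without library 2 of 15 min.

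Genes named below without a call were chosen for their known roles after their values were seen. Of the 6 tested genes for ligands and receptors 0 were called. Lifr, for the LIF receptor, stood at 33.6 CPM at 15 min, against 34.9 CPM at 0 min, with a change of -0.052 ± 0.16, and Il6st, which encodes gp130, had a change of -0.14 ± 0.21; neither was called. Of 8 kinases and adaptors 2 were called. Jak1, a kinase bound to gp130, fell to 9.23 CPM at 15 min, against 16.7 CPM at 0 min (log2 -0.88 ± 0.23). Jak3, which acts with the common gamma chain of lymphocyte receptors, fell to 16.4 CPM at 15 min, against 28.8 CPM at 0 min (-0.83 ± 0.19).

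Of the regions taken for 4 other STAT genes 2 were called, and those for Stat4 and Stat5b, far from the gene starts, were not. Stat2, which acts in type I interferon signalling, fell to 29.1 CPM at 15 min, against 42.5 CPM at 0 min (-0.54 ± 0.15). The region taken for Stat6 lies 17708 bp from the Stat6 start, by an annotated end of the neighbouring gene Nab2, a corepressor of EGR factors, so its signal cannot be assigned to Stat6. It was at 34.4 CPM at 15 min and 44.4 CPM at 30 min, against 71.8 CPM at 0 min, and was called at both times (-1.07 ± 0.13 and -0.69 ± 0.13, edgeR adjusted p = 1.12e-05 and 0.00618).

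Of 12 tested inhibitors 3 were called at 15 min. Pias3, for a protein that inhibits STAT3, fell to 29.9 CPM at 15 min, against 61.4 CPM at 0 min (-1.05 ± 0.16, adjusted p = 0.000113). Socs7, of the same family as Socs3, changed by -0.72 ± 0.18, and Ptpn1, a phosphatase gene, by -0.62 ± 0.15. Socs1 and Socs2, also of that family, had changes of -0.32 ± 0.16 and -0.0089 ± 0.15 and were not called. With gene ends taken within 500 bp, Socs1 was called and Jak1 was not, for the same count of 8. Of 16 other target genes 1 was called, Zfp36, which encodes an RNA-binding protein that promotes mRNA decay, at -0.74 ± 0.18. The pluripotency factor genes Tfcp2l1 (0.26 ± 0.17) and Tbx3 (0.10 ± 0.11) were not called, nor were Myc (0.22 ± 0.21) and Fos (0.15 ± 0.23). Also not called were Klf4 (-0.17 ± 0.15), Klf5 (-0.15 ± 0.24) and Sall4 (-0.15 ± 0.15). Of the 16 estimates 9 were below 0, with a median of -0.13. Pias3 and the region by Nab2 were called without any 1 of the 9 libraries at 15 min.

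**Figure D4:**
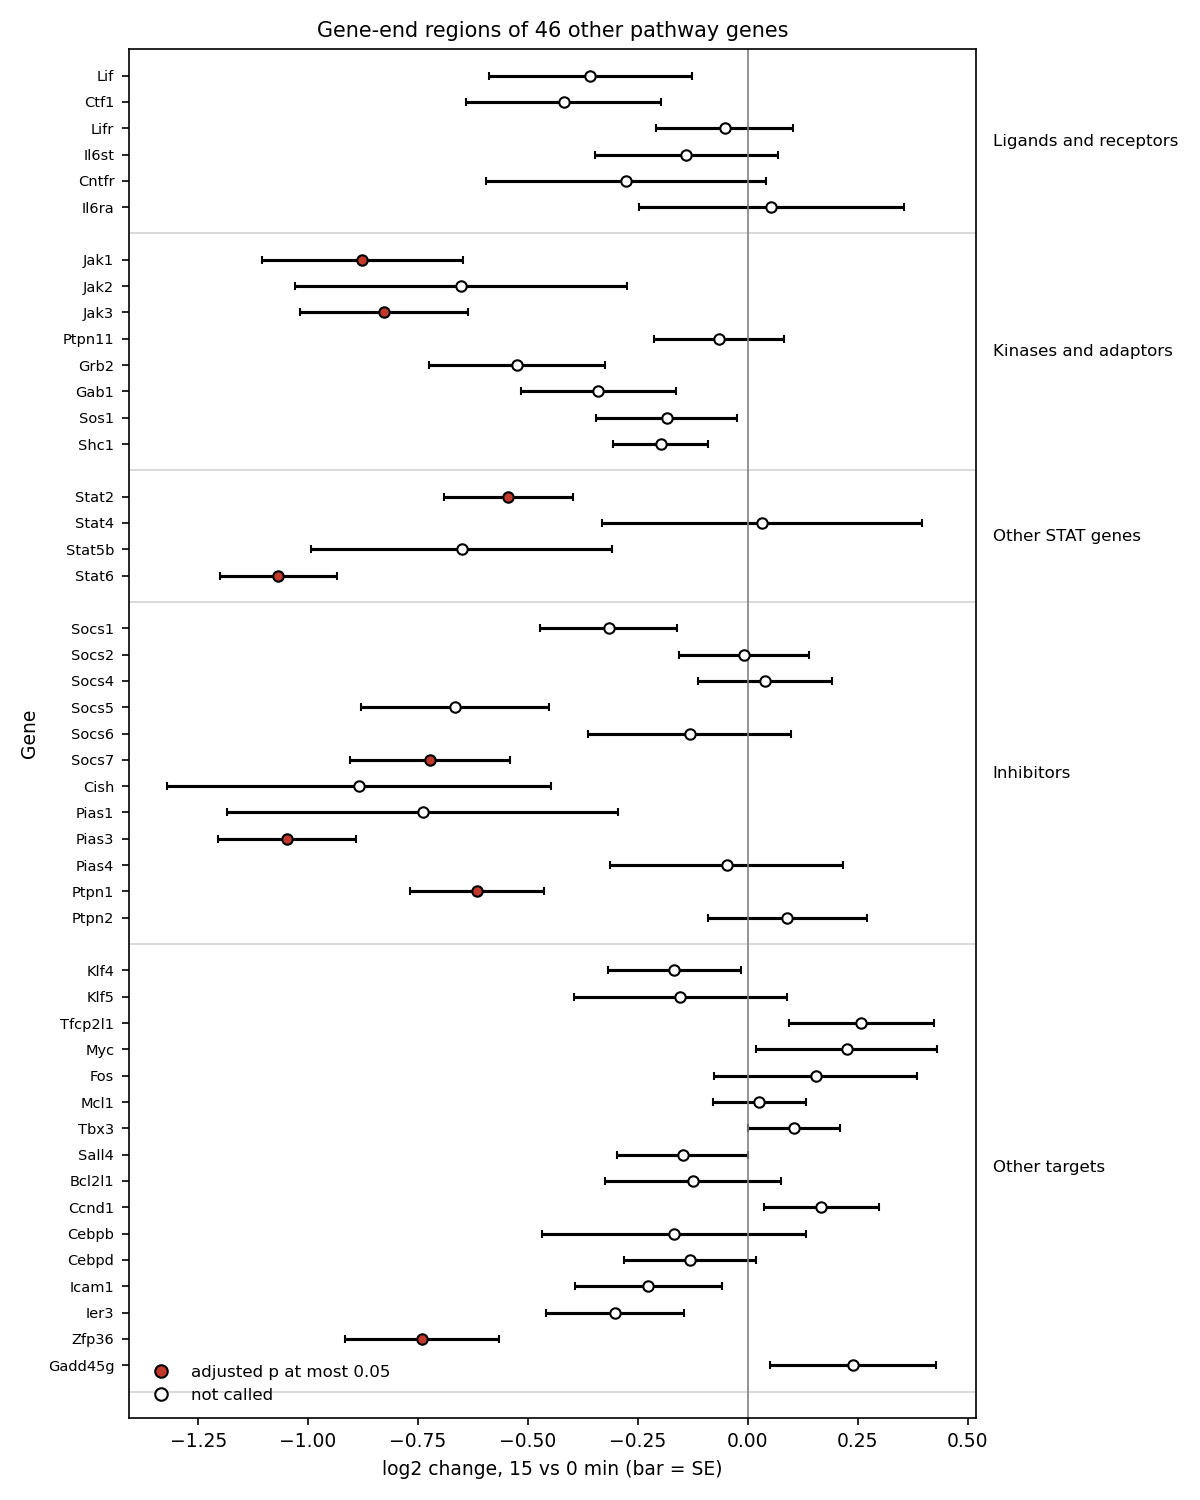
Log2 change with SE at 15 against 0 min for the gene-end regions of 46 other genes of the pathway, grouped by role. The 8 filled points passed an adjusted p of 0.05 and all lie below 0, and 0 of them are ligands or receptors. The region drawn for Stat6 lies by an end of Nab2, and those for Stat4, Stat5b, Il6ra and Grb2 lie far from the starts used.

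The genes whose 9 libraries followed the members most closely were sought among 10182 other gene-end regions, by Pearson's r of log2 CPM, which libraries of 1 time share in part. For Socs3 they were Prkca (r = 0.99), Diaph1 (0.98) and Gm13110 (0.98). For Bcl3 they were Triobp (0.99), the shared region of Fbxo6 and Mad2l2 (0.98) and Capn1 (0.98). For Stat3 they were Hk1, Exosc4 and Anks1 (0.95 each), and for Pim1 Gtpbp1 (0.99), Kif11 (0.98) and 5730507C01Rik (0.97). Stag2 was among the 3 for both Pim3 (0.97) and Gbx2 (0.98), with Rock2 (0.98) and Gm8273 (0.97) for Pim3 and Ncs1 and Klhl26 (0.98 each) for Gbx2. None of the 57 pathway genes was among them. Each r named is among the highest of 10182 over 9 libraries, so high values are favoured by the search. They are descriptions, and shared regulation was not tested.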

How the data were processed

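PRO-seq counts of 9 libraries were used. The deposited table holds raw read counts per region and library, with no normalization. The other deposited values used are positions, of full intervals and of their 600 bp windows. Per the submitters' processing notes, HISAT2, featureCounts, DESeq2 1.26.0 and mm10 were used; their settings and the strand counted are not given in the sources used here. Of the windows, 29.2% overlap another. The nuclei held 1% Drosophila nuclei per the labels, whose counts were not used here, so changes are relative to other mouse regions.

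Counts were fitted in R 4.3.3 with edgeR 4.0.16 (quasi-likelihood, TMM factors of 0.971 to 1.02, filterByExpr, time as a factor, all 9 libraries, common dispersion 0.0228), with Benjamini-Hochberg adjustment over 54299 regions (119990 removed) and calls at 0.05. The p-values rest on library-to-library spread, perhaps technical; it exceeded counting noise within each time (chi-squared per degree of freedom 2.26 to 3.78). The SE is the log2 change over the square root of F. A gene-end region is centred within 1 kb of an annotated end or start of a RefSeq gene (GRCm38.p6), and a gene with several took the one with the highest mean count. A gene of the pathway list is not reported here. Members, lists, the naming rule (per gene the gene-end region of highest mean count, any called region, and the 3 most alike regions averaging 20 counts or more) and the tests were chosen with earlier results of these data known. Tables and figures were made in Python 3.11.15. Alternatives were other scalings, filters, samples, DESeq2 1.42.0, a replicate block and each library left out.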

Additional observations from a re-analysis of the deposited data

How the results depend on the processing

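The 4 member calls at 15 min against 0 min numbered 3 to 5 under the other settings and 3 to 6 with 1 library left out, and all were lower. The Bcl3 region before the start and the Stat3 region inside the gene were called in each of these fits. At 30 min against 0 min, 1 member region was called, 2 with factors set on gene ends (the second being the Bcl3 flank region, higher), 3 with no filter on low counts, 2 with only the times compared, and 0 to 3 with 1 library left out. The pathway genes numbered 2 to 9 at 15 min and 0 to 2 at 30 min with 1 library left out, and 2 at 30 min with only the times compared; from 15 to 30 min they numbered 0 to 2, the 2 being Pias3 and Socs5, higher, without library 3 of 15 min. Signs turned only where changes were near 0 and not called. With factors set on gene ends the Pim1 change was 0.11 at 15 min and 0.014 at 30 min, and the Socs3 change from 15 to 30 min was -0.032. With 1 library left out, Pim1 ran from -0.29 to 0.061 at 15 min, from -0.22 to 0.0084 at 30 min and from -0.17 to 0.19 between them, the Socs3 change from 15 to 30 min from -0.066 to 0.17, and that of Pim3 from -0.29 to 0.21. The cause was not tested. Over all regions, factors set on gene ends gave 4247 higher and 968 lower calls at 15 min (81.4% higher), against 2331 and 2148 (52.0% higher). Whether replicate numbers pair the libraries was not settled (same-numbered deviations correlated at -0.048 to 0.18, 2 of 9 above 0.1, and 7 of 18 best matches shared a number). Between 0 and 15 min the same-numbered values were 0.044, 0.18 and 0.101, and the others ran from -0.199 to 0.102. With the replicate block 5 member regions were called at 15 min, Pim3 added, 1 at 30 min and 0 between, and 9, 1 and 0 pathway genes. Weak regions carried SEs up to 0.57.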
